A study of Mus musculus with 8 samples.

Results

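Peaks of open chromatin in liver sinusoidal endothelial cells (LSECs) that lie on short interspersed elements (SINEs) were compared between MafLSEC-KO and control mice. A peak belongs here when the repeat annotation that HOMER gave to its centre has the class SINE, which held for 2126 of 58522 listed peaks (3.63%). The cells were selected from digested liver by CD146, and accessible DNA was read by ATAC-seq, which uses a transposase that cuts and tags open chromatin. The MafLSEC-KO group (4 libraries) carried a Clec4g-iCre transgene and Maf fl/fl alleles, so that c-Maf was removed in cells that use the Clec4g promoter. Controls (4 libraries) were littermates without the Cre (Clec4g-iCre wt/wt) that carried Maf fl/fl or Maf fl/wt alleles, and animals of both groups were 12 weeks old. The labels name 3 mice a group and do not tie animals to libraries, and tissue of several mice was pooled for digestion, so p-values measure only the spread between these libraries, which may be technical.

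SINEs are short retroelements without genes of their own that are copied through RNA by the enzymes of LINE elements. Mouse B1 elements derive from 7SL RNA and are the relatives of primate Alu, whereas B2, ID and MIR elements derive from transfer RNAs and B4 elements combine an ID-like and a B1-like part. All of these carry, when intact, an internal RNA polymerase III promoter made of an A box and a B box. MIR copies are old and shared among mammals, whereas B1 and B2 multiplied in rodents, and mouse B2 copies are known to have spread binding sites of the insulator protein CTCF. Copies in introns and between genes are mostly kept closed by DNA methylation and repressive chromatin, and single copies can serve as enhancers.

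Counts in peaks ranged between 6783573 and 11614365 in MafLSEC-KO libraries and between 5367124 and 13364062 in control libraries. The median SINE peak had 40 to 70.5 counts in a MafLSEC-KO library and 35 to 79.5 counts in a control library. Over all 8 libraries the median SINE peak had 50 counts a library and the median listed peak 74. The Maf promoter peak had 8.36 to 18.4 CPM (counts scaled to a common library size with TMM) in MafLSEC-KO and 57.0 to 81.9 CPM in controls. Values of single libraries are given in the order of replicates 1 to 4. Promoter peaks of all 6 pan-endothelial marker genes were listed. Promoter peaks of 10 of 15 sinusoidal endothelial genes summed to 272 to 302 CPM in MafLSEC-KO and 318 to 387 CPM in controls. At an adjusted p under 0.05, 4 of them were lower and 1 higher, that of Clec4g (8.97% of all tested peaks were higher and 6.45% lower). Those of 7 of 14 continuous endothelial genes summed to 162 to 201 CPM in MafLSEC-KO and 163 to 217 CPM in controls (1 higher, 1 lower). Those of 3 of 10 profibrotic and tip cell genes summed to 32.5 to 39.7 CPM in MafLSEC-KO and 13.2 to 16.7 CPM in controls (2 higher, 0 lower). The part of these genes in the SINE results was not tested. No promoter peak was listed for any of 6 hepatocyte, 6 stellate cell or 4 cholangiocyte genes, while 1 of 6 macrophage genes had one (5.54 to 14.9 CPM in MafLSEC-KO, 5.80 to 11.9 CPM in controls). For lymphocytes 1 of 5 genes had one (4.52 to 12.8 CPM in MafLSEC-KO, 3.61 to 11.1 CPM in controls). By flow cytometry the authors report a lower share of cells positive for LYVE1 or CD31 in MafLSEC-KO isolates than in controls. The share positive for the myeloid marker CD11b was higher. Whether the isolates of these libraries were measured is not given. Fewer cells with an open copy and less opening per cell cannot be told apart in such bulk samples.

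The B2 family had the most members (772 peaks), followed by Alu, which in the mouse is B1 and its proto-B1 relatives (609), B4 (394), MIR (289), ID (44), Deu (11) and the tRNA family (7), over 36 repeat names. Members lay in introns (1256) or between genes (870), since the annotation gives a repeat only to peaks outside promoters and exons. The median distance to the nearest transcription start was 15592 bases, against 23731 bases for intronic and intergenic peaks outside repeats and 63048 bases for LINE peaks. Of the members 347 lay within 5 kb of a start. SINE peaks had a median width of 430.5 bases and a median level of 6.05 CPM, against 441.5 bases and 6.09 CPM for LTR peaks, 364 bases and 3.64 CPM for LINE peaks and 513 bases and 7.93 CPM for intronic and intergenic peaks outside repeats. Within the class, B2 peaks were the narrowest (364 bases) and weakest (4.87 CPM) of the 5 larger families, and MIR peaks the strongest (8.20 CPM). Since a peak is assigned by its centre, wide peaks also cover other sequence, and 375 members exceeded 1000 bases.

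The B box is the letter pattern GTTCNANNC, searched on both strands of the central 300 bases of each peak. It occurred in 46.6% of B2, 44.0% of Alu, 34.1% of ID, 21.6% of B4 and 13.1% of MIR peaks, against 11.2% of all listed peaks. A match is a description only. Reference sequences around it (RefSeq, GRCm38.p6, the assembly behind mm10) are shown for 5 named peaks, each under the repeat name of the peak's centre, with the B box in capitals (1 of 2 matches at Cmip) and each written in the direction in which the B box reads.
B1_Mus1, Hnrnpll: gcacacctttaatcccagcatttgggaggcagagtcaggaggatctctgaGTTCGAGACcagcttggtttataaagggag
B3, Retn: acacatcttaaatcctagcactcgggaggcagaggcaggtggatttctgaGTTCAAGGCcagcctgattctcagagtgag
ID_B1, Cmip: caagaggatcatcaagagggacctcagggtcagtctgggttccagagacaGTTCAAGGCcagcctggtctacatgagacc
B2_Mm2, Hivep3: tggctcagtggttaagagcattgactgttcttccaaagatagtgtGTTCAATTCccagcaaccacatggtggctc
MIRb, Mir1943: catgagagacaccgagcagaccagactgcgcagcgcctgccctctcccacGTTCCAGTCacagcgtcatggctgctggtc

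These windows lie at chr17:80017205-80017284 (minus strand), chr8:3659294-3659373 (plus strand), chr8:117293216-117293295 (minus strand), chr4:119742934-119743008 (minus strand) and chr15:79369264-79369343 (minus strand), in the order shown. The matches at Hnrnpll and Cmip lie 3 and 6 bases from the peak's centre. Those at Retn, Hivep3 and Mir1943 lie 78, 101 and 70 bases from it, and since only the centre carries the repeat name, these windows need not lie in the repeat named. The windows in the B3 peak at Retn and in the ID_B1 peak in Cmip shared an unbroken run of 17 bases that holds the B box, and the longest run shared by the Hnrnpll and Retn windows was 11 bases. The letters of the Retn window are thus like those of the B1_Mus1 and ID_B1 windows and should not be read as B3 sequence.

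Of 2095 SINE peaks that passed the filter on low counts (31 did not), 117 were higher and 150 lower in MafLSEC-KO at an adjusted p under 0.05 (edgeR's quasi-likelihood test with Benjamini-Hochberg adjustment over all tested peaks). Among all 58268 tested peaks, 8.97% were higher and 6.45% lower, so the SINE shares of 5.58% higher and 7.16% lower gave fewer gains than the background and about as many losses. The median log2 fold change of tested SINE peaks was -0.14 and 62.3% of them had a negative value, against a median of -0.00 and 50.4% over all tested peaks. Intronic and intergenic peaks outside repeats had 10.4% higher, 7.57% lower and a median of 0.00. LINE peaks had 5.73% higher, 4.79% lower and a median of -0.32, and LTR peaks 10.1% higher, 8.32% lower and a median of -0.03. The LINE values moved with the libraries used. Without control replicate 4, 519 LINE peaks were lower (17.9%, where 8.09% of all peaks were) and the median was -0.49, whereas the median was -0.18 without control replicate 3, -0.05 with the log2 library total as a covariate and 0.03 without control replicates 1 and 3. With the replicate number as a block, 186 SINE peaks were higher (8.88%, where 14.2% of all peaks were) and 257 lower (12.3%, where 10.7% were). The count of higher SINE peaks was 71 without control replicate 2 (3.35%, where 5.73% of all peaks were higher), and that of lower ones 96 without MafLSEC-KO replicate 3 (4.57%, where 4.58% were lower).

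The groups did not overlap in CPM, with every MafLSEC-KO library above every control, at 145 SINE peaks (6.92%, where 11.2% of all tested peaks did so), and with every one below at 194 (9.26%, where 8.29% did so). Called gains had a median log2 fold change of 0.97 and reached 3.13, and called losses had a median of -0.90 and reached -2.44. Gains of at least 2-fold numbered 53 and such losses 65, and the share over all tested peaks at this size was not counted. Gained SINE peaks were wider than lost ones, with a median of 681 bases against 508.5 bases, while their median levels were 8.47 and 9.49 CPM.

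**Figure D1:**
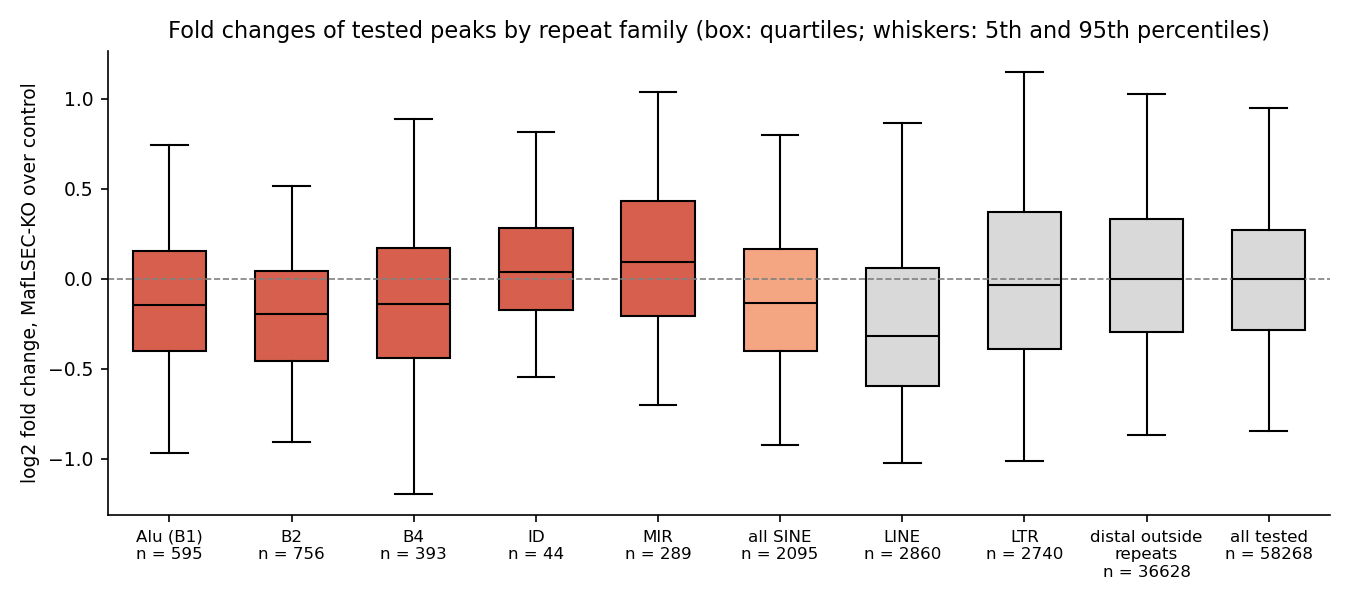
Log2 fold changes (MafLSEC-KO over control, y axis) of tested peaks in 5 SINE families, all SINE peaks, LINE, LTR, intronic and intergenic peaks outside repeats and all tested peaks. Boxes are quartiles and whiskers the 5th and 95th percentiles. The medians of Alu, B2 and B4 lie below 0 (-0.15, -0.19 and -0.14), that of MIR above it (0.09).

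By family, among Alu peaks 35 were higher and 46 lower of 595 tested (5.88% and 7.73%, where 8.97% and 6.45% of all tested peaks were called), with a median log2 fold change of -0.15. In B2, the family with the lowest share of calls, 15 were higher and 37 lower of 756 tested (1.98% and 4.89%), and 70.4% of tested peaks had a negative fold change, with a median of -0.19. Of the 5 larger families B4 had the highest share of losses, with 28 higher and 48 lower of 393 tested (7.12% and 12.2%) and a median of -0.14. In MIR gains outnumbered losses, with 31 higher and 15 lower of 289 tested (10.7% and 5.19%) and a median of 0.09. Of 44 ID peaks 4 were higher and 1 lower (9.09% and 2.27%), of 11 Deu peaks 4 were higher and 2 lower (36.4% and 18.2%), and of the 7 tRNA-family peaks 1 was lower (14.3%). Leaving out 1 library moved several of these counts, and the share called among all tested peaks moved too. Without control replicate 2 there were 14 higher and 25 lower Alu peaks (2.31% and 4.13%), 24 lower B2 peaks (3.13%) and 18 higher B4 peaks (4.58%), where 5.73% of all peaks were higher and 4.49% lower. Without MafLSEC-KO replicate 2 there were 20 higher and 24 lower Alu peaks (3.32% and 3.99%, where 6.13% and 4.26% of all peaks were), and without MafLSEC-KO replicate 3 there were 21 lower Alu peaks (3.52%, where 4.58% of all peaks were). Without control replicate 4 there were 66 lower B2 peaks (8.63%, where 8.09% of all peaks were). With the replicate number as a block, Alu had 51 higher and 74 lower peaks (8.57% and 12.4%), B2 25 and 78 (3.31% and 10.3%), B4 44 and 72 (11.2% and 18.3%) and MIR 53 and 26 (18.3% and 9.0%), where 14.2% and 10.7% of all tested peaks were called. B4 had 86 lower peaks without control replicates 1 and 3 (21.9%, where 9.56% of all peaks were lower) and 87 with the log2 library total as a covariate (22.1%, where 11.3% were). In the same fits B2 had 58 lower peaks (7.52%) and 60 (7.94%), below those shares of all peaks, with medians of -0.11 and -0.10. The negative medians of Alu, B2 and B4 and the positive median of MIR kept their sign under all 17 other fits tried (Alu -0.19 to -0.07, B2 -0.26 to -0.10, B4 -0.18 to -0.13, MIR 0.04 to 0.12), among them an offset for GC content and an offset for abundance. Differences between families were not tested.

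Medians were also read library by library. Relative to the mean of the controls on a log2 scale, the median B2 peak stood at -0.09, -0.22, -0.15 and -0.12 in MafLSEC-KO and at 0.08, 0.02, 0.05 and -0.14 in controls. Control replicate 4, the deepest library, thus lay among the MafLSEC-KO libraries for B2. The median MIR peak stood at 0.15, 0.11, 0.13 and 0.09 in MafLSEC-KO and at -0.01, -0.02, 0.00 and 0.06 in controls, and here no library crossed over. The median B4 peak stood at -0.09, -0.13, -0.15 and -0.04 in MafLSEC-KO and -0.04, 0.02, -0.04 and 0.06 in controls, where MafLSEC-KO replicate 4 and control replicates 1 and 3 lay close together.

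Since the families differed in level, medians were also read within ranges of mean CPM. The negative medians of Alu and B2 were found in each range below 20 CPM (-0.27 to -0.12 for Alu, -0.26 to -0.17 for B2) and were near 0 above it (-0.02 and -0.00). Peaks outside repeats had medians of 0.12, 0.05, -0.05, -0.05, -0.00 and 0.02 from the weakest to the strongest range. B4 peaks were negative in all 6 ranges (-0.21 to -0.10), and MIR peaks were positive in the 5 ranges below 20 CPM and at -0.05 above.

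**Figure D2:**
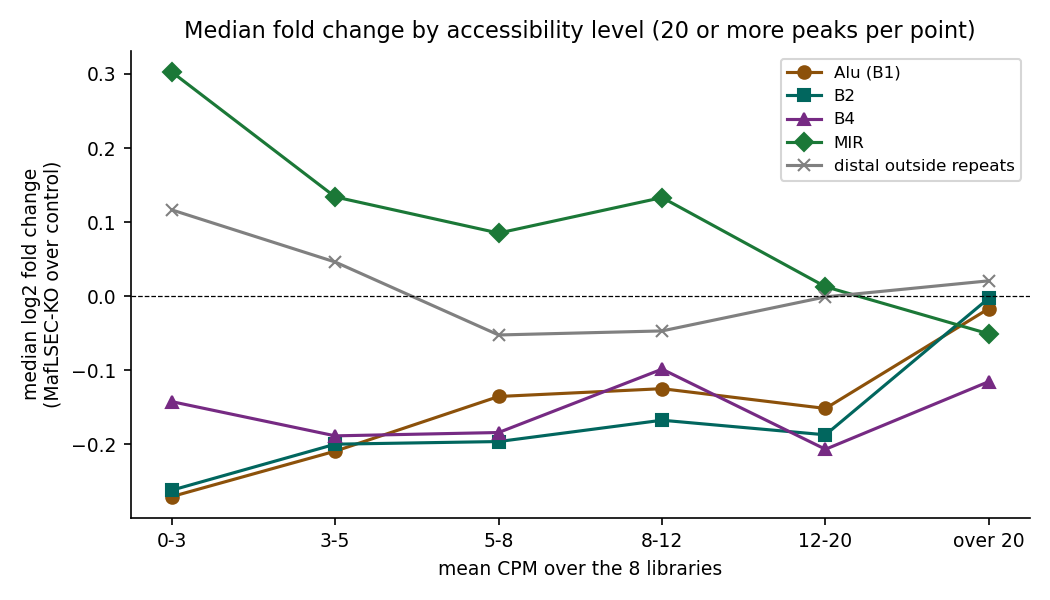
Median log2 fold change (MafLSEC-KO over control, y axis) of tested peaks in 6 ranges of mean CPM over the 8 libraries (x axis). Lines show the Alu, B2, B4 and MIR families and intronic and intergenic peaks outside repeats, and points with under 20 peaks are left out. Below 20 CPM the Alu, B2 and B4 lines lie under 0 and under the line of peaks outside repeats.

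As a share of all counts in peaks, SINE peaks took 2.0, 1.92, 1.93 and 2.05% in MafLSEC-KO, against 2.1, 2.06, 2.06 and 2.16% in controls. All 4 MafLSEC-KO libraries lay below all 4 controls. The mean was 1.98 ± 0.06% in MafLSEC-KO and 2.10 ± 0.04% in controls (SD, n = 4 each), a ratio of 0.944 (two-sided exact permutation p = 0.0286, the smallest that 70 regroupings can give, adjusted p = 0.0381 over 8 shares). A share also falls when counts elsewhere rise, and on the scale of mean CPM per SINE peak after TMM the groups overlapped (9.39 ± 0.14 CPM in MafLSEC-KO and 9.76 ± 0.36 CPM in controls, SD, n = 4 each, exact permutation p = 0.0857). Taken between libraries of the same number, SINE peaks were lower in MafLSEC-KO in 4 of 4 pairs on both scales, by 0.100 to 0.141 percentage points of the counts and by 0.127 to 0.629 CPM. On the share scale any pairing gives 4 of 4, since the groups did not overlap there. The exact test by sign changes over 4 pairs cannot give a p below 0.125, which it gave on both scales.

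B2 peaks took 0.53, 0.49, 0.497 and 0.538% in MafLSEC-KO, against 0.593, 0.568, 0.583 and 0.556% in controls, and B4 peaks 0.406, 0.394, 0.391 and 0.423% in MafLSEC-KO, against 0.434, 0.439, 0.427 and 0.474% in controls. Both shares were lower in every MafLSEC-KO library than in any control (exact permutation p = 0.0286, adjusted p = 0.0381 each, n = 4 each). B2 peaks also kept the groups apart on the scale of mean CPM per peak, with 6.72 ± 0.19 CPM in MafLSEC-KO and 7.37 ± 0.12 CPM in controls (SD, n = 4 each). On that scale the B4 groups overlapped, with 10.3 ± 0.2 CPM in MafLSEC-KO and 11.2 ± 0.7 CPM in controls (SD, n = 4 each, exact permutation p = 0.0571). Over B4 peaks not called in either direction, a subset that the same comparison sets, the shares overlapped as well (exact permutation p = 0.114).

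Alu peaks took 0.604, 0.585, 0.579 and 0.627% in MafLSEC-KO, against 0.645, 0.632, 0.619 and 0.668% in controls, and the groups overlapped (exact permutation p = 0.0571, adjusted p = 0.0653, n = 4 each). Within pairs of the same number the Alu share was lower in MafLSEC-KO in 4 of 4, by 0.040 to 0.047 percentage points (exact p = 0.125 by sign changes, the smallest possible). MIR peaks took 0.361, 0.362, 0.364 and 0.365% in MafLSEC-KO, against 0.344, 0.34, 0.35 and 0.367% in controls. Control replicate 4 was the highest of all 8 libraries there, so that the MIR groups overlapped too (exact permutation p = 0.143, n = 4 each). The ID share was higher in MafLSEC-KO, with 0.070 ± 0.003% against 0.056 ± 0.002% in controls (SD, n = 4 each, exact permutation p = 0.0286). This rested on 1 peak. Without the peaks around Clec4g described below, the ID shares were 0.051 ± 0.003% in MafLSEC-KO and 0.050 ± 0.002% in controls (exact permutation p = 0.457, n = 4 each). The 11 Deu peaks took 0.0142 ± 0.0009% in MafLSEC-KO and 0.0129 ± 0.0002% in controls (SD, n = 4 each), a higher share in every MafLSEC-KO library, while their mean CPM per peak overlapped between groups (13.0 ± 0.8 CPM in MafLSEC-KO and 11.6 ± 0.4 CPM in controls, SD, n = 4 each, exact permutation p = 0.0571). The 7 tRNA-family peaks took 0.0140 ± 0.0007% in MafLSEC-KO and 0.0172 ± 0.0015% in controls, a lower share in every one (exact permutation p = 0.0286 each).

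**Figure D3:**
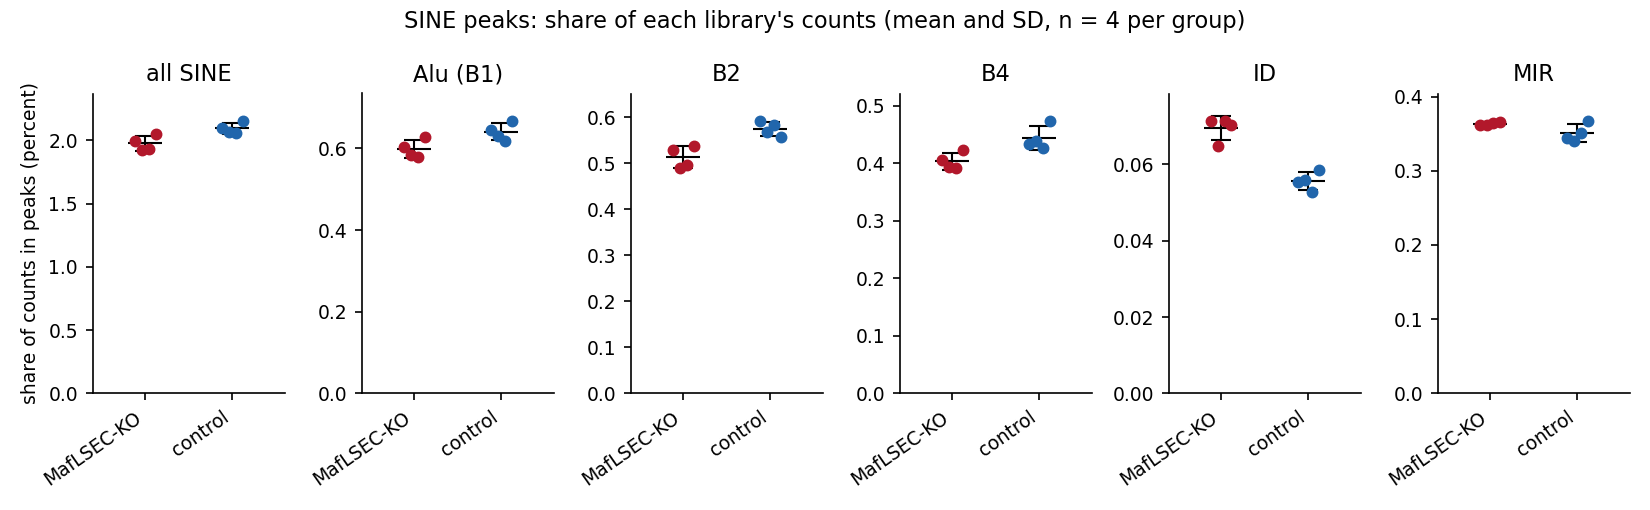
Share of each library's counts (percent, y axes from 0) in all SINE peaks and in 5 families, with MafLSEC-KO left and control right, 1 point per library, and the mean and SD (n = 4 per group). All SINE, B2 and B4 points of MafLSEC-KO lie below all control points, ID points above them, and Alu and MIR points overlap.

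Counts of all peaks of a repeat name were also summed, as B1 and B2 subfamilies differ in age. Of 853 names of any repeat class, 10.1% had a higher and 9.14% a lower sum. Of the 36 SINE names, 1 was higher and 6 lower, and with the replicate number as a block 3 were higher and 10 lower, where 16.3% of all names were higher and 18.1% lower. Leaving out 1 library moved the number of called SINE names between 4 (without MafLSEC-KO replicate 1, 2 or 3 or without control replicate 2) and 11 (without control replicate 3). For these fits the share over all repeat names was not counted.

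In the B2 family the sum of B2_Mm1a, one of the youngest mouse subfamilies, was lower, with 418, 377, 396 and 385 CPM in MafLSEC-KO, against 557, 482, 517 and 432 CPM in controls (log2 fold change -0.34 ± 0.07 (SE), adjusted p = 0.00851, 90 tested peaks). The groups did not overlap. B2_Mm1t, the other young subfamily, came to 222, 204, 213 and 200.1 CPM in MafLSEC-KO, against 269.7, 251, 281 and 207 CPM in controls (log2 fold change -0.27 ± 0.09 (SE), adjusted p = 0.0552), and its adjusted p was 0.00266 with the block and 0.0229 with DESeq2. Control replicate 4 was at the level of the MafLSEC-KO libraries for B2_Mm1t, and without it the adjusted p was 0.00146, whereas without control replicates 1 and 3 it was 0.213. Reads of such young copies fit many places in the genome almost equally well, the methods name no minimum mapping quality, and the part that read placement has in these sums was not tested. For B2_Mm2 the sums were 1362, 1260, 1228 and 1343 CPM in MafLSEC-KO, against 1506, 1518, 1444 and 1453 CPM in controls (log2 fold change -0.19 ± 0.04 (SE), adjusted p = 0.00995), a drop without overlap that was called in every fit of all its peaks.

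B3, an older branch of the family and the most frequent SINE name (267 tested peaks), came to 2206, 2118, 2123 and 2213 CPM in MafLSEC-KO, against 2338, 2342, 2273 and 2332 CPM in controls. This small difference without overlap was called (log2 fold change -0.10 ± 0.03 (SE), adjusted p = 0.0401), but not with the GC offset (adjusted p = 0.165) nor after leaving out any 1 of 6 libraries, namely any MafLSEC-KO replicate or control replicate 1 or 2 (adjusted p between 0.0595 and 0.133). Without the peaks around Clec4g described below, B3 had a log2 fold change of -0.13 (adjusted p = 0.0163). Those peaks were picked as gained, so leaving them out could only lower this value. B3A was not called, with 1095, 1106, 1094 and 1188 CPM in MafLSEC-KO, against 1106, 1169, 1112 and 1172 CPM in controls (log2 fold change -0.02 ± 0.04 (SE), adjusted p = 0.703).

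In the B4 family, the name B4 itself was lower, with 462, 446, 451 and 472 CPM in MafLSEC-KO, against 526, 575, 526 and 593 CPM in controls (log2 fold change -0.28 ± 0.05 (SE), adjusted p = 0.0033), all MafLSEC-KO libraries below all controls. RSINE1 was lower too, with 835, 842, 801 and 921 CPM in MafLSEC-KO, against 959, 999, 909 and 1046 CPM in controls (log2 fold change -0.20 ± 0.06 (SE), adjusted p = 0.0255). MafLSEC-KO replicate 4 overlapped control replicate 3 there, and the call was lost with the GC offset (adjusted p = 0.0609) and without MafLSEC-KO replicate 1, 2 or 3 or control replicate 2 (adjusted p between 0.0672 and 0.0812). B4A and ID_B1 had log2 fold changes of 0.03 and -0.09 and were not called. Without the peaks around Clec4g described below, which were picked as gained, B4A had a log2 fold change of -0.08 (adjusted p = 0.239).

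Among the 11 B1 and proto-B1 names with at least 20 tested peaks, none had a called sum, with log2 fold changes between -0.15 for B1_Mm, the youngest B1 subfamily, and 0.02 for B1F and PB1D9. At an unadjusted p under 0.05, 4 of these 11 sums (B1_Mm, B1_Mus1, B1_Mus2 and B1_Mur3) were lower. B1_Mm and B1_Mus2 passed with the block (adjusted p = 0.0249 and 0.0122), and with DESeq2 none of the 11 was called (adjusted p = 0.0722 for B1_Mm and 0.106 for B1_Mus2). PB1D11, with 15 tested peaks, was lower (log2 fold change -0.28 ± 0.08 (SE), adjusted p = 0.0406), a call that did not hold without MafLSEC-KO replicate 1, 2 or 3 or control replicate 2 (adjusted p between 0.0647 and 0.120) nor with the GC offset (adjusted p = 0.0545).

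The 4 MIR names all had positive log2 fold changes, 0.03 for MIR, 0.05 for MIRc, 0.09 for MIRb and 0.14 for MIR3. Leaving out 1 library gave -0.003 to 0.05 for MIR and -0.008 to 0.10 for MIRc, so their sign was not stable. The values of MIRb (0.05 to 0.11) and MIR3 (0.09 to 0.17) stayed positive. MIR3 came to 928, 981, 960.2 and 942 CPM in MafLSEC-KO, against 806, 874, 854 and 924 CPM in controls (log2 fold change 0.14 ± 0.05 (SE), adjusted p = 0.0547). Its groups did not overlap, and its adjusted p was 0.00786 with the block, 0.00820 without control replicate 4 and 0.188 with DESeq2. MIRb was not called (adjusted p = 0.131), and without control replicate 4 it was (adjusted p = 0.0465). ID4_ was the only SINE name with a higher sum, 393, 357, 406 and 357 CPM in MafLSEC-KO, against 241, 256, 218 and 247 CPM in controls (log2 fold change 0.65 ± 0.07 (SE), adjusted p = 1.04e-04), and without the peaks around Clec4g its log2 fold change was 0.07 (adjusted p = 0.428).

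**Figure D4:**
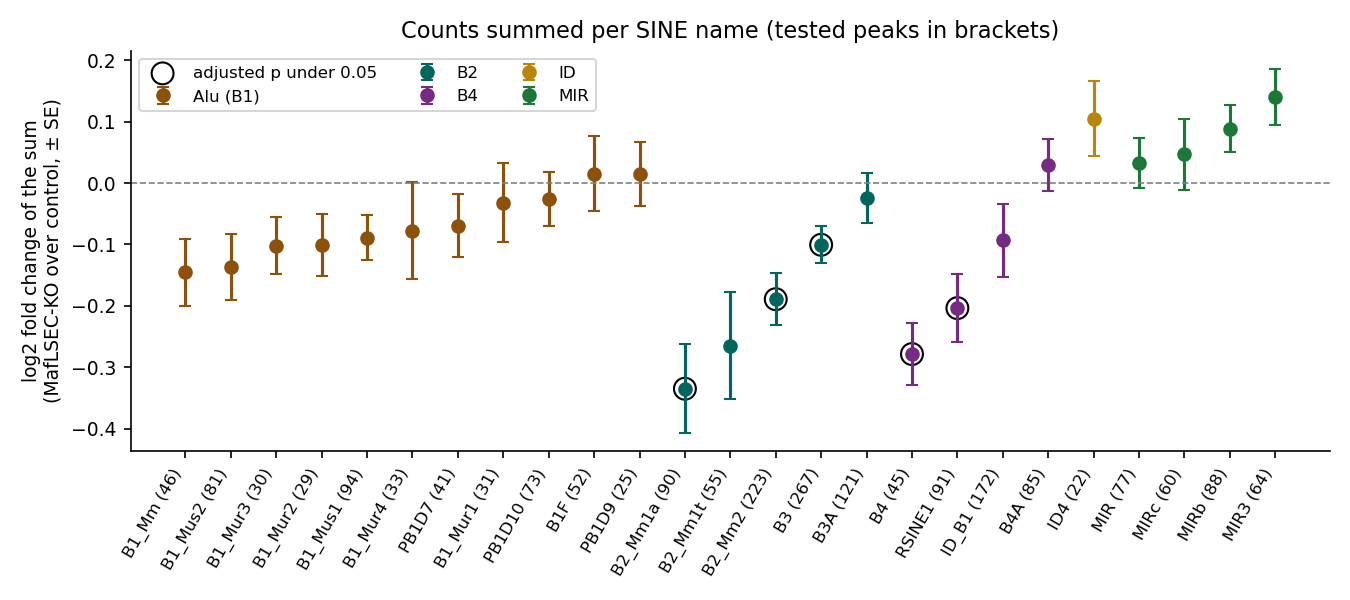
Log2 fold change (MafLSEC-KO over control, ± SE, y axis) of counts summed over all peaks of each SINE name with at least 20 tested peaks (number in brackets, x axis), grouped by family. Circles mark sums past an adjusted p of 0.05, which are B2_Mm1a, B2_Mm2, B3, B4 and RSINE1, all below 0. The 4 MIR names lie above 0.

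Most peaks named below were chosen for a small p and for groups that do not overlap, so their separation is a description. The SINE gains with the smallest p included 3 peaks of a stretch of 25 gained peaks around Clec4g on chromosome 8 (chr8:3642493-3814135, log2 fold changes 1.22 to 3.21). Its bounds were set by these same calls, from Clec4g outward for as long as each next listed peak was called higher. Leaving it out therefore lowers any sum that holds its peaks. Clec4g codes for LSECtin, a lectin of sinusoidal endothelium, and its regulatory sequence drives the Cre, so copies of the transgene and opening of the native locus cannot be told apart there. The B3 peak in intron 4 of 4 of the Retn model (chr8:3658741-3659800), the gene of the hormone resistin, had 56.1, 32.3, 64.4 and 34.6 CPM in MafLSEC-KO, against 7.08, 3.85, 8.73 and 3.09 CPM in controls (log2 fold change 3.13 ± 0.29 (SE), adjusted p = 1.10e-06). The B4A peak in intron 1 of Fcer2a (chr8:3691572-3693852), the gene of the IgE receptor CD23, had 99.9, 81.3, 96.6 and 75.5 CPM in MafLSEC-KO, against 15.6, 9.33, 16.2 and 8.88 CPM in controls (log2 fold change 2.86 ± 0.18 (SE), adjusted p = 2.12e-08). These gains of 8.74-fold and 7.27-fold were followed by that of the ID4_ peak in intron 5 of Clec4g itself (chr8:3717312-3719162), with 196, 175, 209 and 161 CPM in MafLSEC-KO, against 63.4, 57.9, 44.9 and 61.7 CPM in controls (log2 fold change 1.70 ± 0.12 (SE), adjusted p = 1.36e-07). Without these 3 peaks, 114 SINE peaks were higher.

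Outside that stretch, the largest of the named gains was a MIR copy between genes, 201180 bases before the start of Clvs1, which codes for a clavesin of the endosomal pathway (chr4:9067807-9068420). It had 34.2, 45.1, 39.2 and 37.7 CPM in MafLSEC-KO, against 9.08, 7.09, 9.95 and 6.17 CPM in controls, a gain of 4.96-fold (log2 fold change 2.31 ± 0.17 (SE), adjusted p = 1.77e-07). A B3A peak in intron 2 of Filip1, whose product binds filamin A (chr9:79885081-79886280), had 36, 39.1, 37.4 and 38.6 CPM in MafLSEC-KO, against 13.8, 14.5, 16.8 and 18.1 CPM in controls (log2 fold change 1.25 ± 0.14 (SE), adjusted p = 7.05e-06). A PB1D9 copy was nearest to Tgif1, a homeobox repressor of TGF-beta signalling, but lay 117954 bases from it in intron 5 of Dlgap1, a scaffold gene of synapses (chr17:70728327-70729320). It had 33.2, 27.4, 32.3 and 28.4 CPM in MafLSEC-KO, against 11.4, 13.9, 12.2 and 11.3 CPM in controls (log2 fold change 1.31 ± 0.15 (SE), adjusted p = 9.75e-06). Each of these 3 peaks was at least 2-fold higher.

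Further MIR-family gains were near 2-fold. The MIRb peak nearest to Mir1943, within intron 5 of Tmem184b (chr15:79368342-79370099), ranged over 26.8 to 30.7 CPM in MafLSEC-KO and 12.7 to 15.6 CPM in controls (log2 fold change 1.04 ± 0.15 (SE), adjusted p = 7.65e-05), and the MIR3 peak nearest to the long noncoding gene 4930459C07Rik (chr10:96332447-96333532) over 47.1 to 72.9 CPM in MafLSEC-KO and 24.9 to 37.9 CPM in controls (log2 fold change 1.03 ± 0.15 (SE), adjusted p = 1.16e-04). The B4A peak 116715 bases from Mzt1, which codes for a spindle organising protein (chr14:98929143-98929700), ranged over 11.5 to 14.1 CPM in MafLSEC-KO and 3.09 to 6.81 CPM in controls (log2 fold change 1.33 ± 0.23 (SE), adjusted p = 5.26e-04). Smaller gains were those of the PB1 peak in Eva1a, an autophagy gene (chr6:82083892-82085898), with 53.5 to 63.8 CPM in MafLSEC-KO and 32.1 to 38.9 CPM in controls (log2 fold change 0.72 ± 0.12 (SE), adjusted p = 3.11e-04), and of the ID4_ peak 4925 bases before Tnni1, the slow skeletal troponin I gene (chr1:135793927-135795066), with 16.5 to 20 CPM in MafLSEC-KO and 8.73 to 11.8 CPM in controls (log2 fold change 0.82 ± 0.17 (SE), adjusted p = 0.00222).

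The named loss with the smallest p was a B4 copy (chr4:57764529-57765349) nearest to Akap2, which anchors protein kinase A, in intron 6 of the joint Pakap gene model. It had 4.43, 5.16, 5.33 and 5.03 CPM in MafLSEC-KO, against 20.2, 25.6, 19.7 and 25.6 CPM in controls, 4.56-fold lower in MafLSEC-KO (log2 fold change -2.19 ± 0.18 (SE), adjusted p = 3.67e-07). The MafLSEC-KO values were close to each other and far below all controls. An ID_B1 peak in intron 3 of the predicted gene Gm36595 (chr10:56439859-56441282) had 10, 14.4, 13.8 and 14.7 CPM in MafLSEC-KO, against 43.8, 40.8, 44 and 38.7 CPM in controls (log2 fold change -1.65 ± 0.15 (SE), adjusted p = 7.90e-07). A wide B4 peak nearest to Gm48908 (chr2:50623710-50626208) had 31, 30.3, 30.6 and 37.1 CPM in MafLSEC-KO, against 73.5, 82.4, 68.1 and 71.8 CPM in controls (log2 fold change -1.20 ± 0.12 (SE), adjusted p = 2.22e-06), 2.29-fold lower in MafLSEC-KO.

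An ID_B1 copy in intron 1 of Cmip (chr8:117293070-117293427), the gene of c-Maf-inducing protein, named for its effect in T cells, had 2.51, 1.84, 0.94 and 1.28 CPM in MafLSEC-KO, against 6.36, 6.96, 6.99 and 10.2 CPM in controls (log2 fold change -2.27 ± 0.31 (SE), adjusted p = 5.22e-05). It rested on 9 to 20 counts in MafLSEC-KO libraries and 35 to 136 in controls. The RSINE1 peak in intron 1 of Lgmn, the gene of the lysosomal protease legumain (chr12:102437048-102437306), had 3.54, 2.21, 3.03 and 2.3 CPM in MafLSEC-KO, against 9.44, 11.2, 9.78 and 12.6 CPM in controls (log2 fold change -1.99 ± 0.23 (SE), adjusted p = 1.20e-05). The next peak, 929 bases away in Lgmn, fell as well (log2 fold change -1.73, adjusted p = 0.00130).

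Losses on B1 copies included the B1_Mus1 peak 45034 bases from Hnrnpll, which codes for a splicing regulator (chr17:80016299-80018169), with 21.1, 24.1, 25.2 and 28.1 CPM in MafLSEC-KO, against 53.9, 64.8, 53.3 and 60.4 CPM in controls (log2 fold change -1.24 ± 0.13 (SE), adjusted p = 3.38e-06). Of the same family were the PB1 peak 21655 bases before Camta1, a calmodulin-binding transcription activator (chr4:151883071-151883775, 3.03 to 4.15 CPM in MafLSEC-KO and 8.56 to 13.2 CPM in controls, log2 fold change -1.75 ± 0.22 (SE), adjusted p = 2.50e-05) and the B1_Mur2 peak near C330024D21Rik (10 to 14.7 CPM in MafLSEC-KO and 26.5 to 35.2 CPM in controls, log2 fold change -1.18 ± 0.16 (SE), adjusted p = 5.57e-05).

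The losses on B2 copies with the smallest p were 2 B2_Mm2 peaks, although B2 losses reached a log2 fold change of -2.44. The one 71819 bases before Hivep3, a zinc finger gene (chr4:119742604-119743114), had 3.54, 3.96, 4.91 and 4.78 CPM in MafLSEC-KO, against 10.2, 12.4, 12 and 13 CPM in controls (log2 fold change -1.47 ± 0.20 (SE), adjusted p = 6.65e-05). The one in intron 1 of C330020E22Rik (chr4:129384506-129385103) had 3.84, 5.25, 3.55 and 4.27 CPM in MafLSEC-KO, against 11.8, 20, 8.73 and 25.9 CPM in controls (log2 fold change -1.99 ± 0.28 (SE), adjusted p = 8.31e-05). Controls varied widely among themselves at this peak, and all lay above every MafLSEC-KO library. Lost MIRb peaks were those in intron 3 of Tomt (chr7:101900655-101901059, 6.05 to 8.02 CPM in MafLSEC-KO and 13.1 to 22.1 CPM in controls, log2 fold change -1.28 ± 0.20 (SE), adjusted p = 2.24e-04) and in intron 4 of Tcf7l2, the gene of a Wnt pathway factor (chr19:55788785-55789311, 2.8 to 4.79 CPM in MafLSEC-KO and 8.21 to 11.6 CPM in controls, log2 fold change -1.42 ± 0.23 (SE), adjusted p = 3.37e-04). The lost ID4 peak nearest to Mir129-1 (chr6:28955572-28955802, 2.66 to 3.5 CPM in MafLSEC-KO and 3.63 to 6.22 CPM in controls) was close to the threshold (log2 fold change -0.79 ± 0.26 (SE), adjusted p = 0.0472) and was not called after leaving out any 1 of 7 libraries (all but control replicate 1) (adjusted p between 0.0584 and 0.134). The other 23 named peaks were called in all 17 other fits.

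**Figure D5:**
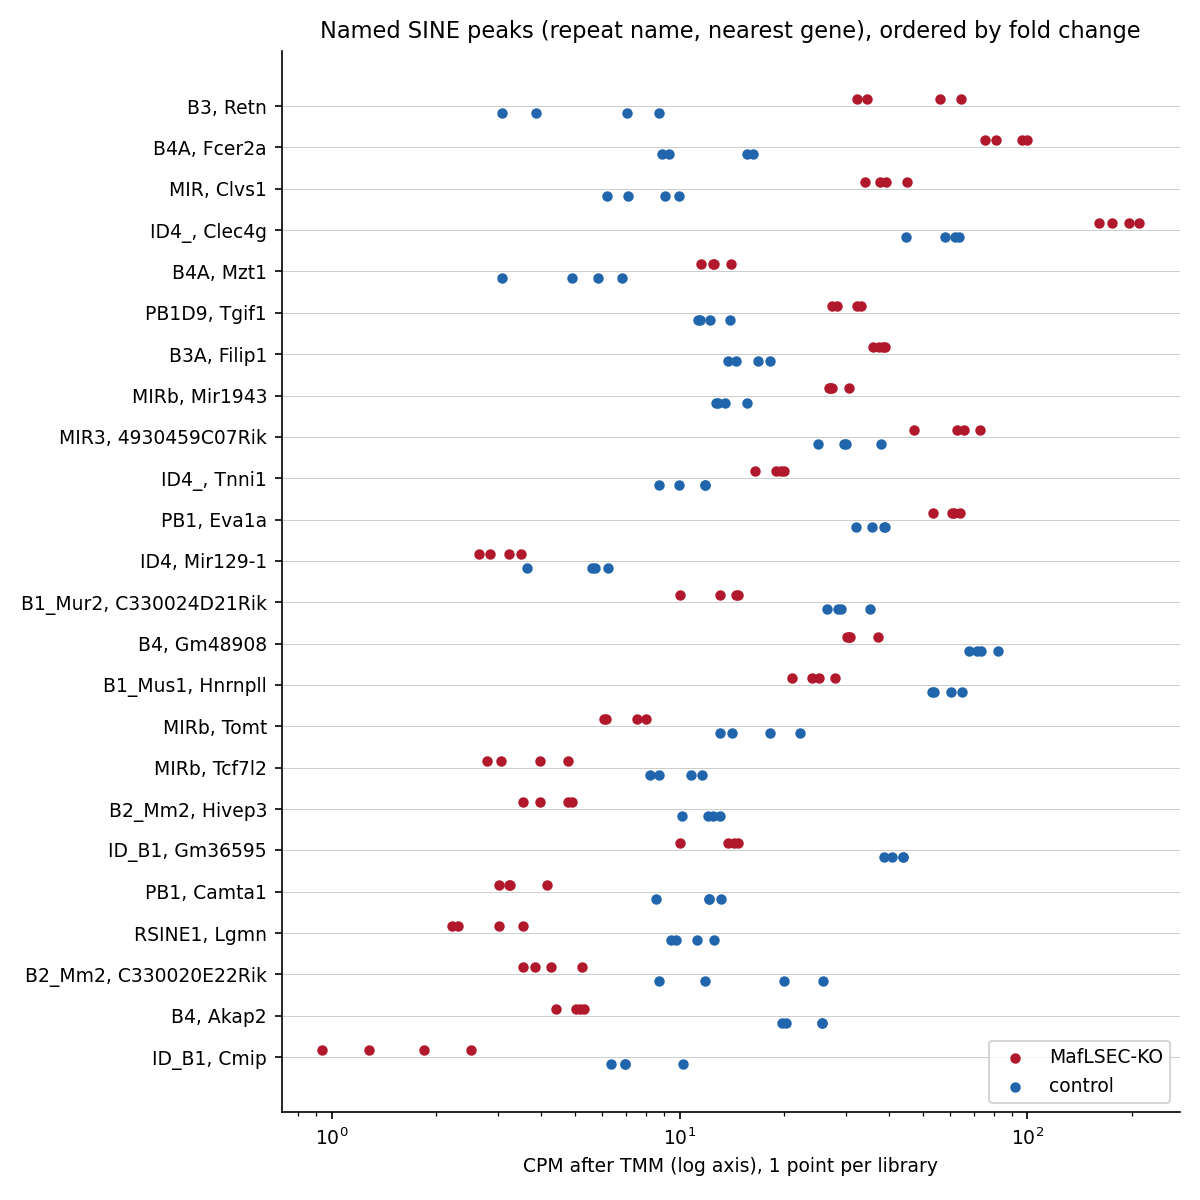
CPM after TMM (log x axis) of the 24 named SINE peaks (rows, by repeat name and nearest gene, ordered by fold change), with 4 MafLSEC-KO points above 4 control points in each row. In every row all points of 1 group lie on the same side of all points of the other, which the choice of most of these peaks required.

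Motifs were searched in the same central 300 bases, on both strands. The AP-1 pattern TGANTCA is a loose form of the site of FOS and JUN factors, as it allows any middle base. It occurred in 28.2% of gained, 16% of lost and 10.4% of uncalled SINE peaks, against 11.5% of all listed peaks. Intronic and intergenic peaks outside repeats gave 28.0%, 12.3% and 12.2%. The MARE arm TGCTGAC is 1 side of the palindrome that MAF dimers bind. The palindrome allows C or G as its middle base, and an arm that ends in that G (TGCTGAG) was not searched. The arm TGCTGAC occurred in 2.56% of gained, 9.33% of lost and 3.28% of uncalled SINE peaks, against 5.98% of all listed peaks. Outside repeats the shares were 5.10%, 16.5% and 6.10%. Of the 77 tested SINE peaks that held the MARE arm, 14 were lower (18.2%) and 3 higher (3.90%), against 6.74% and 5.65% of those without it. Of the 248 that held the AP-1 pattern, 33 were higher (13.3%) and 24 lower (9.68%), against 4.55% and 6.82% of those without it. The AP-1 and MARE arm patterns overlap where the arm is followed by TCA. The full T-MARE palindrome was in 0 of 2126 SINE peaks and 0.02% of all listed peaks. The CTCF core occurred in 4.40% of B2 peaks and 5.06% of all listed peaks, and 0 of 117 gained, 5 of 150 lost and 62 of 1828 uncalled SINE peaks held it. Outside repeats it was rare in gained peaks too, with 0.445% of gained, 4.54% of lost and 7.65% of uncalled peaks. The GATA pattern AGATAA was most frequent in MIR peaks, with 26.3% against 16% of all listed peaks, and the ETS pattern CCGGAAGT was rare, with 0.61% of SINE peaks against 1.82%. These shares are given without a test.

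Among the named peaks an AP-1 match was also in the gained peak at Retn and in the lost ones at Lgmn, C330020E22Rik and Mir129-1. Sequences are shown for 4 gained peaks with an AP-1 match and 2 lost peaks with a MARE arm, with the match in capitals (1 of 2 at Tgif1).
MIR, Clvs1: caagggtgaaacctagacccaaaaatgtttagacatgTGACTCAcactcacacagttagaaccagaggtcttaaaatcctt
B3A, Filip1: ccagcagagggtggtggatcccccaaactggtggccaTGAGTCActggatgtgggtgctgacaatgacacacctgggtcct
PB1D9, Tgif1: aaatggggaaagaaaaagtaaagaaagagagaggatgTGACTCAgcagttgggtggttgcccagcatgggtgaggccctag
B4A, Mzt1: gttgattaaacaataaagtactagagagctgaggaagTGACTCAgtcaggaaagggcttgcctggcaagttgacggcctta
B2_Mm2, C330020E22Rik: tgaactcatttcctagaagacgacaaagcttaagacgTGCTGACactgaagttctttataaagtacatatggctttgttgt
MIRb, Tcf7l2: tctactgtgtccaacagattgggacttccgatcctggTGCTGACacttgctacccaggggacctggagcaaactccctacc

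They lie at chr4:9068073-9068153 (plus strand), chr9:79885702-79885782 (plus strand), chr17:70728846-70728926 (plus strand), chr14:98929386-98929466 (plus strand), chr4:129384715-129384795 (plus strand) and chr19:55789044-55789124 (minus strand), in the order shown. In the gained peaks near Clvs1, Tgif1 and Mzt1 the match is the same letters, those at Filip1 are its reverse complement, and the Filip1 window also holds a MARE arm apart from its AP-1 match. In the Tgif1 window the match is followed by GCA, so that the other strand reads TGCTGAG, the arm that was not searched, overlapping the AP-1 match. The match in the Clvs1 peak lies at the peak's centre and that in the Mzt1 peak 5 bases from it. The other 4 lie 37 to 63 bases from the centre and need not lie in the repeat named.

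Whether a SINE peak moved with its surroundings was read from the nearest tested peak outside the SINE class. Of the 88 gained SINE peaks with such a peak within 10000 bases, 23 had a gained neighbour (26.1%) and 2 a lost one. Of the 102 lost ones, 20 had a lost neighbour (19.6%) and 2 a gained one, and of the 1273 uncalled ones 6.99% had a gained and 4.48% a lost neighbour. Peaks outside repeats gave like shares, with 27.1% gained neighbours of gained and 22.4% lost neighbours of lost peaks. Among the named peaks outside the Clec4g stretch, no gain had a called nearest peak, at 4549 to 24257 bases. The losses in Gm36595 and Lgmn and near C330024D21Rik and Mir129-1 had a lost one, at 3343, 929, 5570 and 22306 bases.

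SINE peaks were rarely nearest to genes of the lists of liver cell types and factors, and of the 15 tested ones 1 was called, the Clec4g peak given above. For sinusoidal endothelium the other was a B3 peak 419637 bases from Hgf, with a log2 fold change of -0.40 ± 0.34 (SE, adjusted p = 0.488). Near genes of continuous endothelium, the ID4 peak in Cd9 had 1.71 to 3.10 CPM in MafLSEC-KO and 0.182 to 1.40 CPM in controls (log2 fold change 1.26 ± 0.46 (SE), adjusted p = 0.0725), and the B2_Mm1a peak in Plvap 0.885 to 2.51 CPM in MafLSEC-KO and 1.20 to 3.49 CPM in controls (adjusted p = 0.711). Peaks nearest to Maf (B1F, 283277 bases away), Bach1 (B3) and Jun (MIR3) had log2 fold changes of -0.02, -0.20 and 0.32 and were not called. A list of 33 genes around SINE transcription and silencing held RNA polymerase III subunits, TFIIIC subunits, Setdb1 and Adnp, and also Ctcf, Dicer1 and Ssb. Of the 33, 17 had a listed promoter peak, Setdb1 not among them. Of these promoter peaks 1 was higher and 0 were lower, against 8.97% and 6.45% of all tested peaks.

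Against sequencing depth across the 8 libraries, the SINE share had a Pearson's r of -0.09 (permutation p = 0.817) and a Spearman's rho of -0.10 (permutation p = 0.840), with depth as the log2 total. Leaving out control replicates 1 and 3, whose totals lie farthest from the median, gave an r of 0.32. The MIR share had the closest relation, with r of 0.70 (permutation p = 0.0624) and rho of 0.83 (permutation p = 0.0154, adjusted p = 0.0923 over 6 relations), and an r of 0.52 without those 2 libraries. The B2 share had an r of -0.59 (permutation p = 0.124) and a rho of -0.55 (permutation p = 0.171), and an r of -0.07 without those 2 libraries. Correlations within a group, over 4 libraries, were not computed.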

How the data were processed

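ATAC-seq of CD146-selected liver endothelial cells was analysed from the deposited peak table (4 MafLSEC-KO and 4 control libraries). The authors trimmed and aligned the reads to mm10 with Bowtie2 at default settings, removed duplicates, called peaks (MACS2), left out blacklisted regions and joined both groups' peaks into 1 set. They deposited raw read counts per joined peak and library (bedtools 2.30.0), annotated with HOMER 4.11. No minimum mapping quality and no shift for the transposase are given in the sources used here. The authors also deposited TMM-scaled signal, RPKM values and their sum, the log2 fold changes, p-values and test score of their own comparison (DESeq2 1.42.1), and distances to starts. Of these the distances were used, and none of the comparison columns.

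SINE members were read from the repeat annotation, and the counts of all peaks were fitted with edgeR 4.0.16 (R 4.3.3, TMM, filter on low counts, quasi-likelihood test, Benjamini-Hochberg adjustment). Sums per repeat name were fitted likewise over all repeat names, and shares of counts were compared with exact permutation tests (scipy 1.17.1). Alternatives were DESeq2 1.42.0, RLE scaling, offsets for GC content and abundance, the library total as covariate, stricter thresholds, narrow peaks only, a replicate block and leaving out libraries. Those without the peaks around Clec4g, name sums of uncalled peaks and differences of shares within pairs were added after seeing the data. Same-numbered libraries deviated together from their group means (correlations 0.201, 0.112, 0.271 and 0.467), so the numbers were taken to pair the libraries, although MafLSEC-KO replicate 2 correlated better with control replicate 4 (0.156) and control replicate 1 with MafLSEC-KO replicate 3 (0.225). The labels state no pairing. Replicates 1 and 3 correlated positively across groups (0.163 to 0.271), as did 2 and 4 (0.0734 to 0.467), and all other values were negative. In each group replicates 1 and 3 were the shallower libraries, so the block and depth cannot be told apart. Scripts were tested on simulated data. Intervals of counting error were not computed.

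Members, gene lists and motifs were chosen with earlier results of these data known. Named peaks are, in each direction, the 8 called SINE peaks with the smallest p and no overlap between groups (1 per gene), the 2 called peaks with the smallest p in each family with at least 20 tested peaks, and called peaks nearest to a listed gene. Sequences come from RefSeq (GRCm38.p6).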

Additional observations from a re-analysis of the deposited data

Results flagged for a closer look

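Of 114 groups of 4 libraries examined, 7 had a library whose gap to the nearest other library exceeded Dixon's critical share of the group's range, and chance gives about 1 in 20. In MafLSEC-KO, the lowest ID share of counts was 0.0648%, with the next at 0.0704%. The PB1D10 sum reached 832 CPM in 1 MafLSEC-KO library, with the others up to 814 CPM, and the B3A sum 1188 CPM, with the others up to 1106 CPM. The B3 sum had its lowest control at 2273 CPM, with the next at 2332 CPM. The MIRb peak at Mir1943 reached 30.7 CPM in 1 MafLSEC-KO library, with the others up to 27.5 CPM, and the B4 peak at Gm48908 37.1 CPM, with the others up to 31.0 CPM. The ID_B1 peak at Cmip reached 10.2 CPM in 1 control, with the others up to 6.99 CPM. The causes were not tested.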

How the results depend on the processing

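Of the SINE peaks 267 were called (117 higher, 150 lower). The replicate block gave 443 (186 and 257), the block with a GC offset 456 (185 and 271), the log2 library total as covariate 460 (201 and 259), and leaving out control replicates 1 and 3 together gave 413, with 244 lower. The called shares of all tested peaks rose too, from 8.97% higher and 6.45% lower to 14.2% and 10.7% with the block. They were 13.2% and 11.5% with the block and GC offset, 14.7% and 11.3% with the covariate, and 11.7% and 9.56% without control replicates 1 and 3. An adjusted p under 0.01 left 140 (63 and 77), a log2 fold change of at least 1 in size 118 (53 and 65), and peaks at most 1000 bases wide 77 higher. Among 374 tested peaks whose central 100 bases are all lower case in the reference, 22 were called (6 and 16), a rough subset since lower case does not follow the SINE annotation (the median MIR centre is 0% lower case, the median B2 centre 78%). For these thresholds and subsets the share over all tested peaks was not counted. Leaving out 1 library gave 174 to 321 calls, 71 to 134 higher (71 without control replicate 2) and 96 to 187 lower (96 without MafLSEC-KO replicate 3). Of all tested peaks, 5.73% were higher without control replicate 2 and 4.58% lower without MafLSEC-KO replicate 3. Without control replicate 4, which gave the most SINE calls, 9.76% of all tested peaks were higher and 8.09% lower.

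Of the 36 SINE name sums 7 were called (1 higher, 6 lower), 13 with the replicate block (3 and 10), 17 with the library total (3 and 14) and 13 without control replicates 1 and 3 (2 and 11). Over all repeat names 10.1% of sums were higher and 9.14% lower, and 16.3% and 18.1% with the block. For all other fits and subsets of name sums this share was not counted, so their counts are not read as a SINE result. There were 2 higher sums with the abundance offset, with DESeq2 and with the block and GC offset, and 0 without the peaks around Clec4g. Sums of uncalled peaks, a subset that the same comparison sets, gave 0 calls with edgeR, 0 higher and 0 lower (8 at an unadjusted p under 0.05). Leaving out 1 library gave 4 to 11 calls, 1 to 3 higher and 3 to 9 lower. Single names and settings gave the same call 462 times, gained one 25 times and lost one 26 times, and single named peaks kept it 401 times and lost it 7 times.

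The SINE share differed by -0.12 percentage points (-0.14 to -0.10 leaving out 1 library), and on the scale of mean CPM per peak by -0.37 CPM, no longer past the threshold. Within pairs of the same number it differed by -0.12 percentage points on average (exact p = 0.125, the smallest that 4 pairs allow). Over uncalled peaks the share differences of ID, MIR and Deu turned to -0.000927, -0.00262 and -0.000355 percentage points, and over narrow peaks that of the tRNA family to 0.000342. The correlation of SINE level with depth was 0.34 on the CPM scale, and -0.60 to 0.11 leaving out 1 library. The causes were not tested. The median SINE peak held 35 to 79.5 counts a library, which limits the calls of weak peaks.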
